A study of Mus musculus with 7 samples.

Results

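Described here are 9 genes of C-type lectin receptors other than langerin in mouse Langerhans cells (LC), the dendritic cells of the epidermis: Clec4a2, Clec4d, Clec4e, Clec4n, Clec5a, Clec7a, Clec10a, Clec12a and Cd209a. They were chosen by name as myeloid pattern receptors, 9 of the 21755 gene symbols on the array, and for each gene the probe set with the highest mean over the 7 arrays was taken. All 9 were among the 13053 genes tested. The 7 samples were LC from adult wild-type C57:Bl6 mice, 4 from naive animals (control) and 3 from animals given 12 Gy of ionizing radiation (irradiated). Controls 1 and 4 cite an earlier record. The cells were sorted by flow cytometry and pooled to over 10000 cells a sample; the labels give neither the time from irradiation to sorting nor whether replicates came from separate mice, so the spread behind each p-value is that of these samples and could be technical. Values are log2 of the deposited intensity, and 1 log2 unit is a doubling.

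C-type lectin receptors are membrane proteins whose lectin-like domain binds sugars or other ligands of microbes and damaged cells. The activating members signal through an ITAM-type tyrosine motif, carried by the receptor itself (Dectin-1, the product of Clec7a) or by the adaptors FcRgamma (gene Fcer1g) and DAP12 (gene Tyrobp), to the kinase Syk and the adaptor Card9, which leads to cytokine transcription. The inhibitory members carry an ITIM, which recruits phosphatases such as SHP-1 (gene Ptpn6), and others mainly take up glycosylated antigen. In skin LC the best known C-type lectin is langerin (gene Cd207), while the receptors described here are mostly known from monocytes, macrophages, neutrophils and other dendritic cells.

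The library labelled irradiated 1 stood apart from the rest. Across the tested genes (genes are not independent replicates) its Pearson correlations with the other arrays were 0.650 to 0.728, against 0.858 to 0.967 among the other 6. Cd207 was at 5.64 log2 there, H2-Aa at 6.52 and Ptprc, the pan-leukocyte gene, at 5.61, whereas the 6 other arrays lay at or above 8.85, 12.98 and 9.21. The summed intensity of 12 LC markers was 2660 in that library, 42171 to 53850 in the controls and 57743 to 59275 in irradiated 2 and 3, and that of 11 fibroblast markers was 25524 in it and at most 8916 elsewhere. Differences between the groups are therefore given with all 7 arrays and without that library. Sex-linked transcripts also separated the groups: Xist was at 10.94 to 11.71 in the controls and 5.31 to 5.93 in the irradiated samples, and the Y-linked gene Ddx3y at 4.35 to 5.45 and 6.67 to 8.71, so sex and irradiation cannot be told apart in any comparison below. In sorted bulk samples, fewer cells of a type and less RNA per cell cannot be told apart either.

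No member passed the test over all genes: 0 of 9 with all arrays and 0 of 9 without irradiated 1 (limma, Benjamini-Hochberg adjusted p under 0.05), where 1.68% and 4.63% of all tested genes passed. At an unadjusted p under 0.05 there were 2 of 9 in both comparisons, Clec5a and Clec4n, beside 19.7% and 21.7% of all genes. The passing genes were mostly lower, since higher calls made up 0.115% and 1.58% of those tested. With all arrays 8 of 9 members had a lower mean in irradiated LC (55.0% of all genes), with a median log2 fold change of -1.60 against -0.05 over all genes. Without irradiated 1 it was again 8 of 9 (56.4% of all genes), with a median of -0.35 against -0.05. In 8 of 9 members irradiated 1 was the lowest of the 7 arrays, which held for 29.0% of all genes. In these 8 it read 4.50 to 5.78 log2, below 6.07 log2, the level under which the dimmest 40% of genes were left out by their mean (here the limit for dim genes). The all-array fold changes therefore rest in part on dim values of uncertain size.

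**Figure D1:**
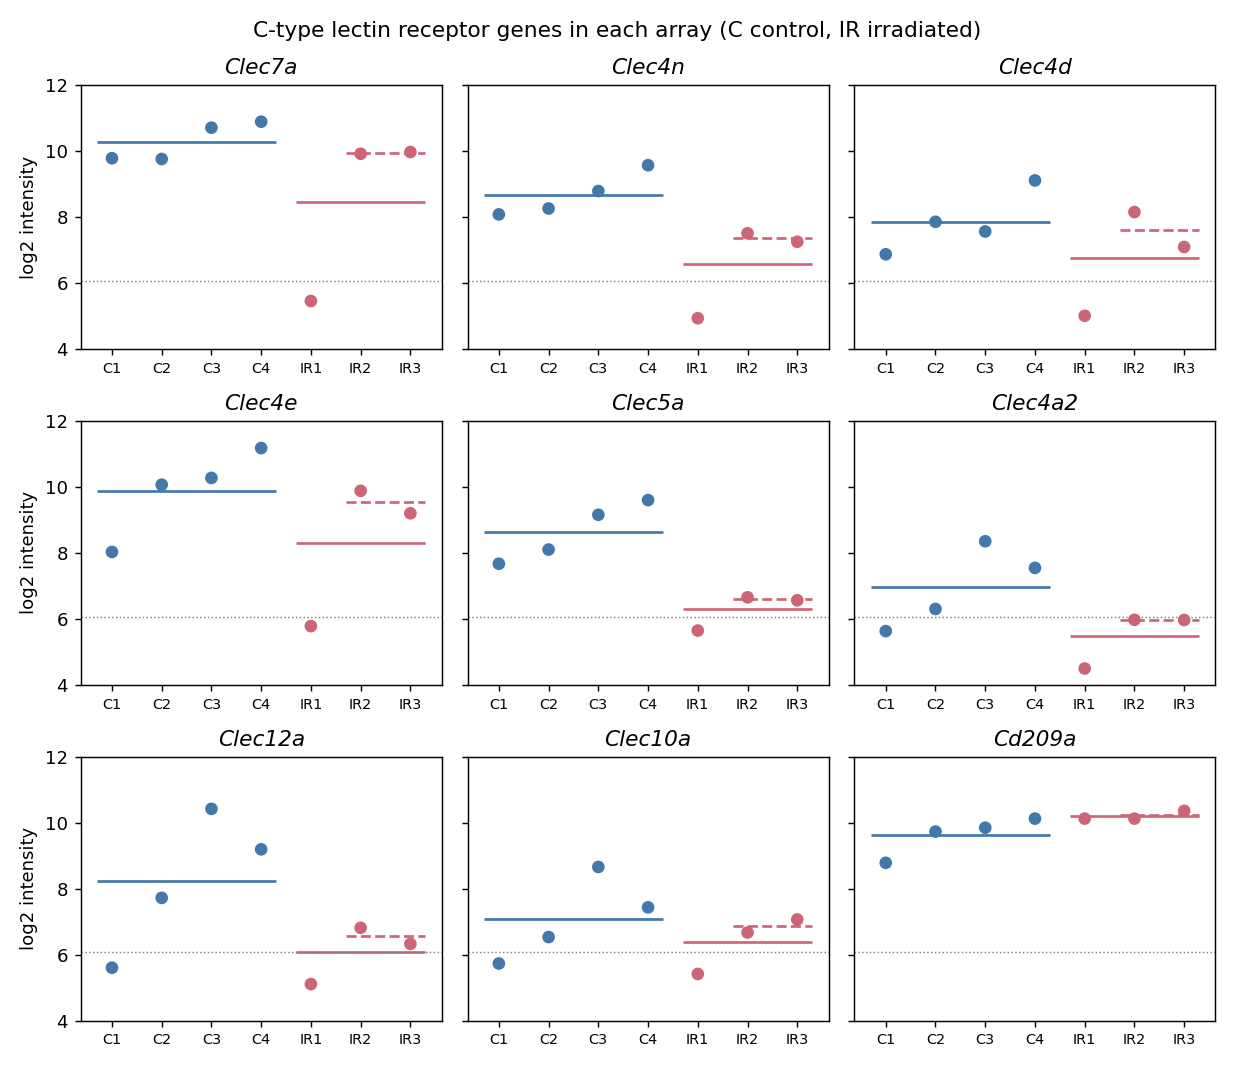
Log2 intensity of the 9 genes in each array: controls C1 to C4 (blue), irradiated IR1 to IR3 (red). Solid lines are group means, the dashed line is the mean of IR2 and IR3, and the dotted line is the limit for dim genes at 6.07. IR1 is the lowest point in every panel except Cd209a, and Clec5a and Clec4n are the 2 panels in which all red points lie below all blue points.

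Among the activating receptors, Clec5a and Clec4n were lower in every irradiated sample than in every control. For 2 of 9 members this held with and without irradiated 1, where all irradiated samples lay below all controls in 15.3% and 20.3% of all tested genes. In 0 of 9 did all irradiated samples lie above all controls, with all arrays (3.46% of all genes) or without irradiated 1 (10.2%).

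Clec5a encodes MDL-1, a myeloid receptor that signals through DAP12 and is known to interact with dengue virus in macrophages. It was at 7.67, 8.10, 9.15 and 9.60 log2 in controls 1 to 4 and at 5.65, 6.66 and 6.56 in irradiated 1 to 3. The groups did not overlap, and the lowest control lay 1.02 log2 above the higher of irradiated 2 and 3. The means were 8.63 ± 0.90 (SD, n = 4) and 6.29 ± 0.56 (SD, n = 3), a log2 fold change of -2.34 (SE 0.49, 95% confidence interval -3.48 to -1.20), which is 5.07-fold lower (limma adjusted p = 0.0614). For Clec5a alone a two-sided exact permutation test gave p = 0.0286, the smallest that 35 assignments of the arrays allow. Without irradiated 1 the log2 fold change was -2.02 (95% confidence interval -3.24 to -0.80, 4.06-fold lower, adjusted p = 0.0764). Its adjusted p without control 1 was 0.0427 (log2 fold change -2.66), and without each other single array it did not pass.

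Clec4n encodes Dectin-2, which recognises fungal mannans and signals through FcRgamma. Its levels in controls 1 to 4 were 8.08, 8.26, 8.79 and 9.57 log2, and in irradiated 1 to 3 they were 4.94, 7.51 and 7.25. Here too no irradiated sample reached the lowest control, with a gap of 0.57 log2 once irradiated 1 was left out. The log2 fold change was -2.11 (SE 0.65, 95% confidence interval -3.60 to -0.61, adjusted p = 0.139) with all arrays and -1.29 (SE 0.40, 95% confidence interval -2.24 to -0.34, adjusted p = 0.120) without that library. The exact permutation p of the single gene was 0.0286 with all arrays. Without irradiated 1 it was 0.133 for Clec4n and for Clec5a, in a design of 15 assignments whose smallest p is 0.0667.

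Clec7a, Clec4e and Clec4d, the remaining activating receptors, overlapped between the groups with and without irradiated 1. Clec7a encodes Dectin-1, the receptor for fungal beta-glucan. It was at 9.78, 9.76, 10.71 and 10.89 log2 in the controls and at 5.46, 9.92 and 9.97 in the irradiated samples. Irradiated 2 and 3 lay between the lower and the higher pair of controls, and irradiated 1 stood at -4.30 log2 relative to the next lowest array. The log2 fold change was -1.84 (SE 1.05, adjusted p = 0.376) with all arrays and -0.34 without irradiated 1 (SE 0.37, 95% confidence interval -1.20 to 0.52, adjusted p = 0.676).

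Clec4e encodes Mincle, which binds the cord factor of mycobacteria and a protein released by dying cells. Its control values were 8.03, 10.06, 10.27 and 11.17 log2, a spread of 8.85-fold between the lowest and the highest, and its irradiated values were 5.78, 9.88 and 9.20. Irradiated 2 and 3 stood above control 1 and below the other controls. Its log2 fold change was -1.60 (SE 1.07, adjusted p = 0.440), and -0.35 without irradiated 1 (95% confidence interval -2.16 to 1.47, adjusted p = 0.862).

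Clec4d encodes MCL, a receptor that forms a complex with Mincle. The controls had 6.87, 7.86, 7.56 and 9.11 log2 and the irradiated samples 5.01, 8.15 and 7.09. Irradiated 2 exceeded 3 of the 4 controls and irradiated 3 exceeded 1 of them. The difference was -1.10 (SE 0.77, adjusted p = 0.461), and -0.23 without irradiated 1 (95% confidence interval -1.61 to 1.16, adjusted p = 0.881). Clec4n, Clec4d and Clec4e are consecutive protein-coding genes on chromosome 6 in the RefSeq map (GRCm38.p6), and of these neighbours Clec4n was the 1 without overlap between the groups.

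Within single arrays these receptors were also compared by a difference of log2 values. Clec5a minus Clec7a was -2.11, -1.66, -1.55 and -1.29 in controls 1 to 4 and -3.26 and -3.40 in irradiated 2 and 3, while irradiated 1 had 0.19, with both genes below the limit for dim genes. Clec4n minus Clec7a was -1.92 to -1.32 in the controls and -2.41 and -2.72 in irradiated 2 and 3, with -0.52 in irradiated 1, above every control. Other pairs differed in this. Clec4e minus Fcer1g was -1.50 and -1.95 in irradiated 2 and 3 and -3.37 to -1.07 in the controls. Clec4d minus Fcer1g was -3.23 and -4.05, against -4.73 to -3.14. Clec5a minus Tyrobp, Clec4n minus Fcer1g and Clec4n minus Clec4e lay below all controls in irradiated 2 and 3. In irradiated 1 they were -1.85, -3.38 and -0.85, the first above every control and the others within the range of the controls. These pairs were picked after the values were seen, their differences were not tested, and they are differences between probe sets, not ratios of molecules.

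**Figure D2:**
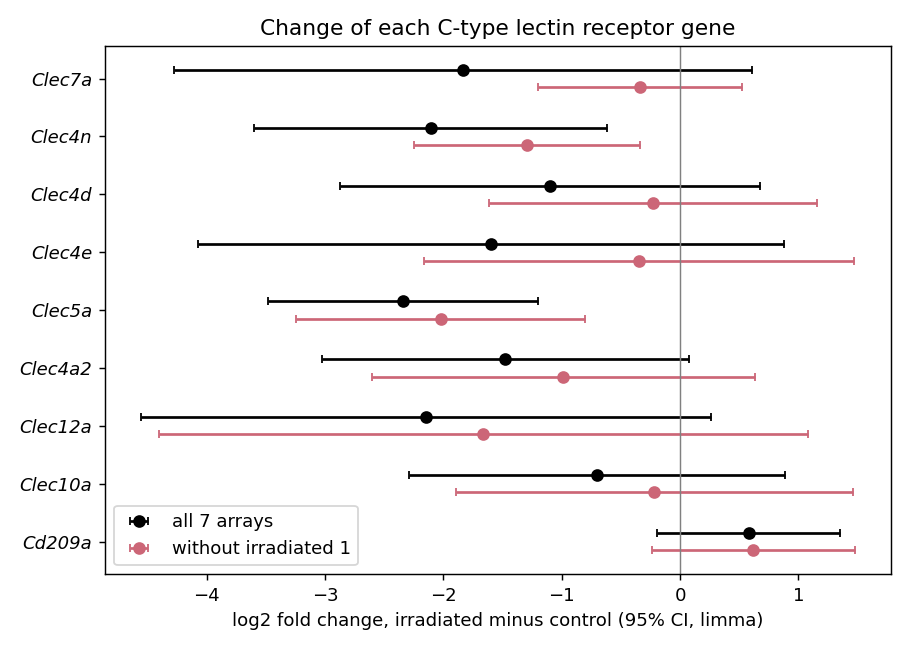
Log2 fold change, irradiated minus control, of each gene with its 95% confidence interval from limma, with all 7 arrays (black) and without irradiated 1 (red). Clec5a and Clec4n are the 2 genes whose intervals lie below 0 in both comparisons. Clec7a, Clec4e and Clec4d move toward 0 when irradiated 1 is left out.

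The promoter sequences of 3 activating receptors are shown, and a link between sequence and level was not tested. The values of Clec5a separated the groups with and without irradiated 1. In 15.3% and 20.3% of all tested genes all irradiated samples likewise lay below all controls. The values of Clec4e and Clec7a did not separate the groups, with or without irradiated 1. Each is the 250 bases before the RefSeq start (GRCm38.p6), read 5′ to 3′ on the gene's strand, for Clec5a chr6:40585806-40586055 (minus strand), for Clec4e chr6:123289872-123290121 (minus strand) and for Clec7a chr6:129472780-129473029 (minus strand). Capitals mark GAGGAA or its reverse complement, the core bound by PU.1, a transcription factor of the myeloid lineage.
Clec5a: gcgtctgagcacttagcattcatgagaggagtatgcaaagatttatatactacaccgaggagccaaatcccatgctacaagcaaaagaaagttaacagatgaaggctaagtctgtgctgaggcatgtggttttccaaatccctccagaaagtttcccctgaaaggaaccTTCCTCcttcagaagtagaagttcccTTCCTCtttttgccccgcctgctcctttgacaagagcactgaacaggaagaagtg
Clec4e: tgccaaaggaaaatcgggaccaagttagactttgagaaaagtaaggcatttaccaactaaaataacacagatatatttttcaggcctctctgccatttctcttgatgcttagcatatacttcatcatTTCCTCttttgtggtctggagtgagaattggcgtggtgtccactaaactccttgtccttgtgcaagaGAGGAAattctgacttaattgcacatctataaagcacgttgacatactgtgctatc
Clec7a: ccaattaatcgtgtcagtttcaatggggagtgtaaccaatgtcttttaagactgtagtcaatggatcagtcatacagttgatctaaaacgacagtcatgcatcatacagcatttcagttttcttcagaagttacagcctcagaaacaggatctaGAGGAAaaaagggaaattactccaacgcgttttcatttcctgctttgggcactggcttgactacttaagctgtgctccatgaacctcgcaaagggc

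Clec5a and Clec4e each held 2 copies of GAGGAA on either strand and Clec7a held 1. RefSeq promoters were matched for 7 of the 9 members, all except Clec4n and Clec10a. Of these 7, 5 held the motif, as did 23.4% of all 32536 promoter windows of that length. The C/EBP motif TTGCNNAA was in 2 of 7 (Clec4e and Clec12a; 9.57% of all windows), the AP-1 motif TGANTCA in 1 of 7 (6.73%), the NF-kB motif GGGANTTCC in 0 of 7 (1.44%) and the TATA box letters TATAAA in 4 of 7 (12.3%), on either strand and in the same windows. The TATAAA match lay at -29 from the start in Clec4e. In Clec5a, Clec4a2 and Cd209a it lay far from the start, at -209, -161 and -184. Each motif was searched on its own, so matches of different motifs can share bases, and a match describes only the letters of the window.

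Among the inhibitory receptors the range over the controls, 4.81 log2 for Clec12a and 2.72 for Clec4a2, exceeded the difference between the group means. Clec12a encodes MICL, an ITIM receptor for uric acid crystals. It was at 5.61, 7.72, 10.42 and 9.19 log2 in controls 1 to 4, a 28.0-fold spread, and at 5.11, 6.82 and 6.33 in irradiated 1 to 3. Irradiated 2 and 3 lay above control 1 and below the other 3 controls. The difference was -2.15 (SE 1.04, 95% confidence interval -4.56 to 0.26, adjusted p = 0.301), and -1.66 without irradiated 1 (SE 1.17, adjusted p = 0.480).

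Clec4a2 encodes DCIR, an ITIM receptor of dendritic cells. Its control values were 5.63, 6.30, 8.35 and 7.55 log2 and its irradiated values 4.50, 5.98 and 5.97. Irradiated 2 and 3 again exceeded control 1 only. The log2 fold change was -1.48 (SE 0.67, adjusted p = 0.273), and -0.99 without irradiated 1 (SE 0.69, adjusted p = 0.477). Its irradiated mean, 5.48 ± 0.85 (SD, n = 3), lay below the limit for dim genes, so the gene entered the test through its control values.

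With all arrays the uptake receptors had the smallest differences. Clec10a encodes MGL1, a receptor for galactose-type sugars on dermal dendritic cells and macrophages. The controls had 5.74, 6.54, 8.66 and 7.44 log2 and the irradiated samples 5.42, 6.67 and 7.07. Irradiated 2 and 3 lay within the range of the controls. Irradiated minus control was -0.70 (SE 0.69, adjusted p = 0.582), and -0.22 without irradiated 1 (95% confidence interval -1.90 to 1.46, adjusted p = 0.908).

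Cd209a, a homologue of the human pathogen receptor DC-SIGN, was the single member with 2 probe sets, and they disagreed. The one used, by its higher mean, read 8.78, 9.73, 9.85 and 10.12 log2 in controls 1 to 4 and 10.12, 10.12 and 10.36 in irradiated 1 to 3. Its intensity was the same to every deposited digit, 1114.85, in control 4, irradiated 1 and irradiated 2. Irradiated 1 thus read as high as irradiated 2 and below irradiated 3 (10.36), although its LC and leukocyte genes were low. The log2 fold change was 0.58 (SE 0.33, 95% confidence interval -0.19 to 1.35, adjusted p = 0.378), and 0.62 without irradiated 1 (SE 0.36, adjusted p = 0.391).

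The other Cd209a probe set read 9.62, 7.25, 11.30 and 10.04 log2 in controls 1 to 4 and 6.33, 8.76 and 9.12 in irradiated 1 to 3, with a log2 fold change of -1.48 (adjusted p = 0.445 when put in its place). Its highest array was control 3 and its lowest irradiated 1, as in Cd209d, a neighbouring paralogue read by 1 probe set (8.86, 6.75, 10.35 and 8.93 in the controls, 6.30, 8.01 and 9.03 in the irradiated samples). The paralogues are similar in sequence, so a probe set can take signal from several of them, and the direction of Cd209a depends on the probe set chosen.

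**Figure D3:**
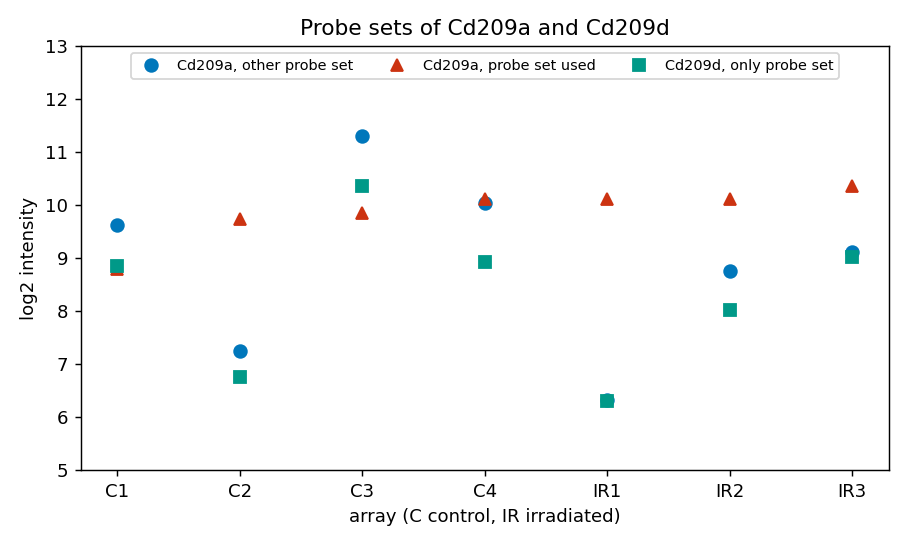
Log2 intensity in each array of the 2 probe sets of Cd209a and the 1 of Cd209d. The Cd209a probe set used (red triangles) stays between 8.78 and 10.36, while the other one (blue circles) spans 6.33 to 11.30 and lies near Cd209d (green squares), both lowest in IR1 and highest in C3.

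The spread among the controls was wide and had an order. Control 1 was the lowest control in 8 of 9 members and control 4 the highest in 6, with control 3 the highest in Clec12a, Clec4a2 and Clec10a. Controls 1 and 4, which cite an earlier record, stood mostly at opposite ends of this order. With that record as a covariate 1 gene passed over the whole array, against 219 without it (limma). No irradiated array cites the record, so the group difference in that fit rests on controls 2 and 3. With controls 2 and 3 only, 1 gene passed too, and leaving out control 4 alone left 2 genes. Markers of monocytes and macrophages followed a like order: the median over 19 of them was 6.88, 8.56, 10.07 and 9.57 log2 in controls 1 to 4, 6.70 in irradiated 1 and 8.81 and 9.12 in irradiated 2 and 3. Their summed intensity was 5468 to 26972 in the controls and 14029 to 14845 in irradiated 2 and 3, and between 15 and 19 of 19 markers lay above the limit for dim genes in each control. Langerin went the other way, with Cd207 at 11.49, 10.96, 8.85 and 8.91 in controls 1 to 4 and 12.35 and 11.86 in irradiated 2 and 3. Within the list 0 of 18 tested markers passed in either comparison, beside 1.68% and 4.63% of all genes. Without irradiated 1 the mean of 9 of 18 was lower in irradiated LC, near the 56.4% of all genes. Chosen after their values were seen, Ccr2, a receptor of monocytes, differed by -1.70 (adjusted p = 0.428) and Cd163, a scavenger receptor of macrophages, by 1.36 (adjusted p = 0.0781) without irradiated 1. With all arrays they differed by -2.0005 and 0.88 (adjusted p = 0.288 and 0.314). The part of other myeloid cells in the levels of the members was not tested.

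Markers of neutrophils, which also use several of these receptors, were mostly dim, with 3 to 6 of 13 above the limit for dim genes in each array. S100a8 and Ly6g lay below it in every array, while Mmp9 read 8.30 to 8.59 in the controls and 8.95 and 9.74 in irradiated 2 and 3. Csf3r read 6.77 to 8.47 in the controls and 6.39 to 6.71 in the irradiated samples, with no overlap; these 4 were picked after their values were seen. Dermal and conventional dendritic cell markers had medians of 6.74 to 7.04 in the controls and 6.32 and 6.58 in irradiated 2 and 3, and their summed intensity was 2891 to 6206 in the controls, 1438 in irradiated 1 and 2399 and 2548 in irradiated 2 and 3. Of 11 tested, 1 fell in both comparisons, Wdfy4 (-1.29, adjusted p = 0.0396; -1.20, adjusted p = 0.0476 without irradiated 1), a gene of cross-presentation. Of all tested genes 1.56% and 3.06% were called lower. Flt3 and Sirpa, picked after their values were seen, lay below all controls in every irradiated sample, as did 15.3% of all tested genes. The mean of 9 of 11 was lower in both comparisons (55.0% and 56.4% of all genes). Zbtb46 and Cd8a were higher, by 0.16 and 0.15 with all arrays. Without irradiated 1, 4 of 11 lay below all controls and 0 above, beside 20.3% and 10.2% of all genes. Clec9a and Xcr1, which define cross-presenting dendritic cells, were below the limit for dim genes in all arrays. The part of such cells in the levels of the members was not tested. Keratinocyte markers, with a median of 9.99 in irradiated 1, were at 7.32 to 9.30 in the controls and 8.93 and 8.48 in irradiated 2 and 3. Medians of the B cell and mast cell lists lay between 5.62 and 6.97 in all arrays. The summed intensity of 10 T cell markers was 657 to 717 in the controls, 1157 in irradiated 1, and 808 and 1614 in irradiated 2 and 3. In irradiated 3, 9 of these 10 lay above the limit for dim genes, against 4 to 5 in the controls, and the part of T cells in the levels was not tested.

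**Figure D4:**
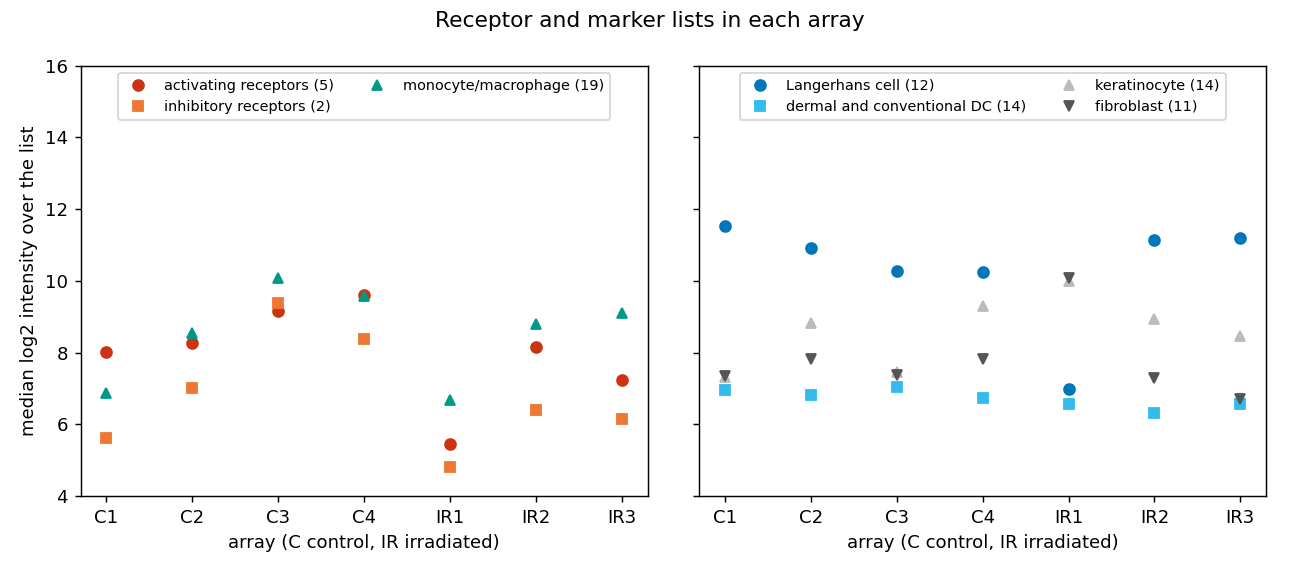
Median log2 intensity over each list in each array; the number of genes in a list is in brackets. On the left, the medians of the activating and inhibitory receptors and the monocyte and macrophage median are lowest in IR1 and lower in C1 than in C3 and C4. On the right, the Langerhans cell median drops to 6.98 in IR1, where the keratinocyte and fibroblast medians are 9.99 and 10.09.

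The adaptors and kinases behind the activating receptors did not pass either, with 0 of 21 past the threshold in both comparisons, beside 1.68% and 4.63% of all genes (limma). At an unadjusted p under 0.05 there were 3 with all arrays and 7 without irradiated 1, beside 19.7% and 21.7% of all genes. Their median log2 fold change was -0.40, and -0.24 without irradiated 1. Without that library 5 of the 21 lay below all controls and 5 above, beside 20.3% and 10.2% of all genes. Tyrobp, the gene of the Clec5a adaptor DAP12, was at 11.51, 11.52, 11.84 and 11.65 log2 in the controls and 7.50, 10.84 and 11.24 in the irradiated samples. The difference was -1.77 with all arrays (SE 0.81, adjusted p = 0.278) and -0.59 without irradiated 1 (SE 0.18, adjusted p = 0.112). Both Tyrobp and Fcer1g lay below all controls in every irradiated sample, as did 15.3% of all tested genes. Fcer1g, the gene of the adaptor shared by Dectin-2, Mincle and MCL, read 11.40, 11.67, 12.29 and 12.24 in the controls and 8.32, 11.38 and 11.14 in the irradiated samples (-1.62, SE 0.71, adjusted p = 0.258; -0.64 without irradiated 1, SE 0.28, adjusted p = 0.239).

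The kinase gene Syk, listed on the array as Sykb, averaged 9.03 ± 0.76 (SD, n = 4) in the controls and 7.75 ± 0.81 (SD, n = 3) after irradiation (-1.29, adjusted p = 0.218; -0.82 without irradiated 1, adjusted p = 0.358). Card9, the adaptor downstream of Syk, was at 8.82 ± 0.59 and 7.82 ± 1.01 (-0.996, adjusted p = 0.321; -0.44 without irradiated 1, adjusted p = 0.594). Malt1, the protease that acts with Card9 and Bcl10, went from a control range of 9.54 to 10.46 to 11.36 and 11.24 in irradiated 2 and 3 but 6.29 in irradiated 1. Its log2 fold change was -0.49 with all arrays (adjusted p = 0.826) and 1.18 without that library (SE 0.27, adjusted p = 0.0586).

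On the inhibitory side, 1 of 7 listed genes fell with all arrays and 2 of 7 without irradiated 1, where 1.56% and 3.06% of all tested genes did. Pilra, an ITIM receptor gene, fell by 3.03 log2 (SE 0.33, adjusted p = 0.01004), from 9.19 ± 0.56 (SD, n = 4) to 6.17 ± 0.32 (SD, n = 3), just above the limit for dim genes. Ptpn6, the gene of the phosphatase SHP-1, read 8.66, 8.80, 9.01 and 8.78 log2 in the controls and 7.02, 7.80 and 8.02 in the irradiated samples. All irradiated samples lay below all controls. The change was -1.20 (SE 0.27, adjusted p = 0.0724) with all arrays, and without irradiated 1 Ptpn6 fell by 0.90 (SE 0.18, adjusted p = 0.0419). The receptor gene Pirb, listed on the array as Lilrb3, was at 9.75 ± 0.64 and 7.57 ± 0.77 (-2.19, adjusted p = 0.0614; -1.75 without irradiated 1, adjusted p = 0.0564), again with no overlap. Lilrb4 (-1.10, adjusted p = 0.456) and the phosphatase gene Inpp5d (-1.15, adjusted p = 0.359) overlapped between the groups, and without irradiated 1 they differed by -0.18 and -0.26 (adjusted p = 0.891 and 0.598).

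**Figure D5:**
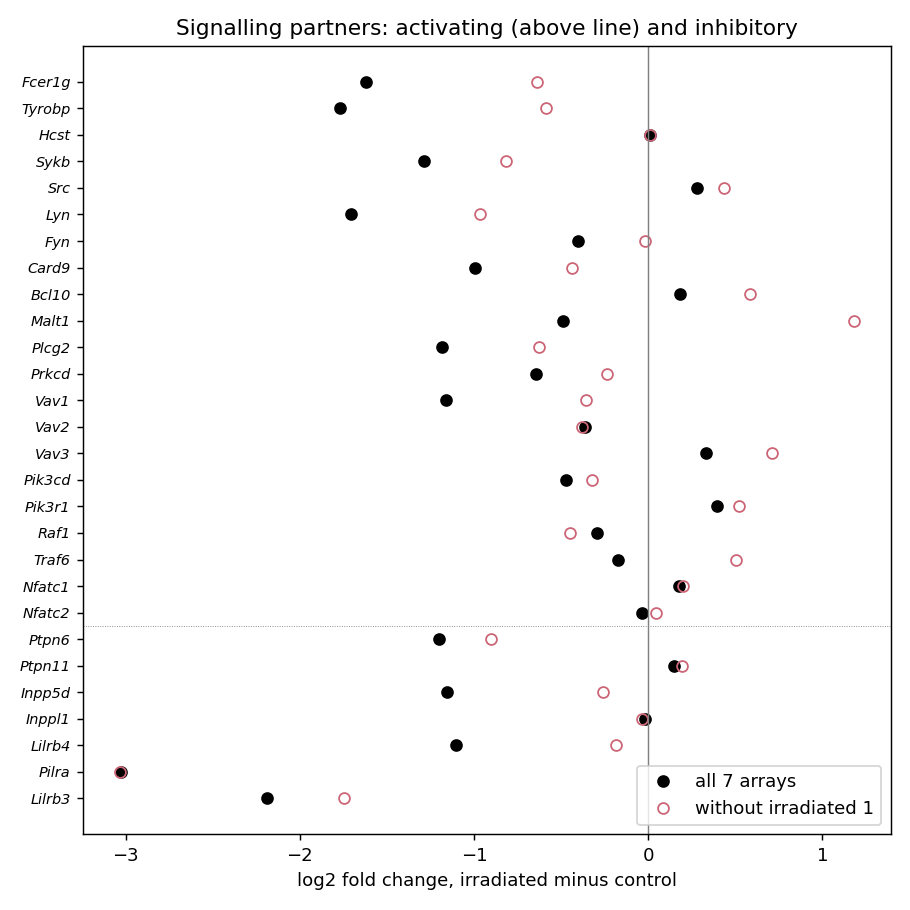
Log2 fold change, irradiated minus control, of 21 signalling genes of the activating receptors (above the dotted line) and 7 inhibitory genes (below it), with all 7 arrays (filled) and without irradiated 1 (open). Pilra is at -3.03 in both comparisons, and Malt1 goes from -0.49 to 1.18.

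Of 38 other genes with a C-type lectin-like domain, 22 were tested and 0 passed in either comparison, beside 1.68% and 4.63% of all genes (limma), with median log2 fold changes of -0.11 and -0.12. At an unadjusted p under 0.05 there were 4 with all arrays and 6 without irradiated 1, beside 19.7% and 21.7% of all genes. Without irradiated 1, 5 of the 22 lay above all controls and 1 below, beside 10.2% and 20.3% of all genes. Ly75, the uptake receptor DEC-205, was at 8.34, 8.63, 7.35 and 7.72 log2 in the controls and 5.79, 9.23 and 8.72 in irradiated 1 to 3. Its difference was -0.10 with all arrays (adjusted p = 0.952) and 0.96 without irradiated 1 (adjusted p = 0.195). Cd207 differed by -0.10 with all arrays (adjusted p = 0.976) and by 2.06 without irradiated 1 (SE 0.79, adjusted p = 0.188). Both lay below all controls in irradiated 1 and above them in irradiated 2 and 3; the latter held for 10.2% of all genes, while Clec5a and Clec4n lay below them. Mgl2, the paralogue of Clec10a, was at 8.94 ± 1.13 and 7.37 ± 1.31 (-1.57, adjusted p = 0.295; -0.82 without irradiated 1, adjusted p = 0.541). Cd72, an inhibitory receptor gene, was at 10.97 ± 0.28 and 8.87 ± 2.48 (-2.09, adjusted p = 0.289), and Klrb1b at 10.73 ± 0.32 and 9.04 ± 2.68 (-1.69, adjusted p = 0.413). Without irradiated 1 they differed by -0.66 and -0.15 (adjusted p = 0.141 and 0.791). Clec4a1 and Clec4a3, relatives of Clec4a2 chosen here after their values were seen, had log2 fold changes of -2.14 and -2.01 with all arrays (adjusted p = 0.279 and 0.220) and -0.75 and -1.17 without irradiated 1 (adjusted p = 0.297 and 0.364).

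Genes that Dectin-1, Dectin-2 or Mincle signalling is known to induce in myeloid cells did not pass: 0 of 18 tested in both comparisons, beside 1.68% and 4.63% of all genes (limma). At an unadjusted p under 0.05 there were 0 with all arrays and 3 without irradiated 1, beside 19.7% and 21.7% of all genes. Their median log2 fold change was -0.32 with all arrays and 0.11 without irradiated 1. Without that library 4 of the 18 lay above all controls and 1 below, beside 10.2% and 20.3% of all genes. The cytokine gene Il1b was at 11.33, 12.07, 12.50 and 12.67 log2 in the controls and 7.71, 12.57 and 11.80 in the irradiated samples (-1.45, adjusted p = 0.473; 0.04 without irradiated 1, SE 0.39, adjusted p = 0.974). The chemokine gene Ccl3 was at 12.32 ± 0.78 and 12.11 ± 1.52 (-0.21, adjusted p = 0.881), but higher by 0.66 in irradiated LC without irradiated 1 (adjusted p = 0.467). Ptgs2, the gene of the prostaglandin enzyme COX-2, was at 11.88 ± 0.57 and 11.33 ± 0.43 (-0.55, adjusted p = 0.414; -0.42 without irradiated 1, adjusted p = 0.597).

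For the 3 members with the widest range over the 7 arrays, the nearest tested genes were sought by the root mean square difference between mean-centred log2 values. Irradiated 1 was included in the ranges and the matching. Clec7a (range 5.43 log2, but 1.13 without irradiated 1) was nearest to Slamf7 (0.28) and Ptprc (0.30), so its choice and match rest mostly on that library. Clec4e (range 5.39, and 3.15 without irradiated 1) was nearest to Ms4a14 (0.26) and to Cd14, the lipopolysaccharide co-receptor gene (0.33). Clec12a (range 5.30, and 4.81 without irradiated 1) was nearest to AI504432 (0.32) and the Fc receptor gene Fcgr4 (0.40). Levels were not ranked between members, because probe sets differ in brightness.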

How the data were processed

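Each array had 1 deposited intensity for every probe set, made by the authors with RMA (robust multi-array averaging), named without a version in the submitters' processing notes. Array design and annotation build, and which arrays were normalised together, stand in no source used here. The 2 deposited tables held equal values, on a linear scale. Depth in the sequencing sense does not apply; the 7 arrays limit the precision.

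Log2 was taken, the probe set with the highest mean kept for each of 21755 symbols, and the lowest 40% by mean left out (below 6.07 log2), leaving 13053 genes. Irradiated and control arrays were compared with limma 3.58.1 (lmFit, eBayes with trend) in R 4.3.3, adjusted by Benjamini-Hochberg over all tested genes, threshold 0.05. Single members also had two-sided exact permutation tests. The fit was first tested on simulated data. List genes absent under their current symbol were found by RefSeq synonym. Deviations from the group means correlated at 0.02, -0.05 and 0.17 between arrays of equal replicate number. Irradiated 1 shifts the irradiated mean, so these values cannot tell whether the arrays were paired.

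Members, lists and motifs were chosen with earlier results of these data known. Named by rule: all members; of the 4 lists of partners, targets and other lectins the genes past the threshold and the 3 with the highest mean, plus Fcer1g, Tyrobp, Syk, Card9, Ptpn6, Cd207, Ly75 and Mgl2; and 2 nearest genes for 3 members. Alternatives concerned the filter, variance prior, scaling, probe sets, offset, record, pairing and left-out arrays.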

Additional observations from a re-analysis of the deposited data

How the results depend on the processing

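No member passed over all genes under the filters, trend and robust settings, scalings, second table, probe set choices or offset tried, nor at an adjusted p under 0.01. With array weights 2 members were called lower, Clec5a (-2.09, adjusted p = 0.00875) and Clec4n (-1.34, adjusted p = 0.0385), beside 3476 of 13053 genes. Genes called over the whole array, 219 as reported, numbered 143 with no filter, up to 312 among the other settings of filter, trend and scaling, 639 at an adjusted p under 0.10 and 18 under 0.01. At an adjusted p under 0.10 the count was 1, Clec5a. Leaving out single arrays gave counts of 0 to 1 members and 2 to 605 genes, and the log2 fold change of Clec5a then ranged from -2.66 to -2.02. Single-gene exact permutation p-values were 0.0286 for Clec5a (-2.34) and Clec4n (-2.11).

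Relative to the mean of Cd74, H2-Aa, H2-Ab1 and Ptprc in the same array, which read low in irradiated 1, the differences turned to 0.059 for Clec7a, 0.80 for Clec4d, 0.30 for Clec4e, 0.42 for Clec4a2 and 1.19 for Clec10a, Clec5a shrank to -0.45 (p = 0.8), Clec4n to -0.21 (p = 0.943) and Clec12a to -0.26 (p = 0.914; exact permutation), and Cd209a was at 2.47 (exact permutation p = 0.0286). Without irradiated 1 these relative differences were -0.36 for Clec7a, -0.25 for Clec4d, -0.36 for Clec4e, -1.01 for Clec4a2, -0.24 for Clec10a and 0.60 for Cd209a. Clec5a was at -2.04, Clec4n at -1.31 and Clec12a at -1.68. The exact permutation p was then 0.0667 for Clec5a and Clec4n, the smallest that 15 assignments allow. It was 0.333 for Clec12a and 0.2 for Cd209a. Cd209a reversed with the mean of its probe sets (-0.45) and with the other probe set (-1.48), an alternative chosen after seeing the data.

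With the replicate number as a block over numbers 1 to 3, 0 members and 0 genes passed, and Clec5a was at -2.02 (adjusted p = 0.191). Against controls 2 and 3 only, or with the earlier record cited by controls 1 and 4 as a covariate, 1 gene and no member passed, with Clec5a at -2.34. With controls 2 and 3 against irradiated 2 and 3, also added after seeing the data, Clec5a was at -2.02 (adjusted p = 0.105) and Clec4n at -1.14 (adjusted p = 0.118).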
